A study of Homo sapiens with 6 samples.

Results

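The genes described here are the 10 genes FOXO1, FOXO3, FOXO4, CCNG2, TXNIP, KLF6, BTG1, SESN1, SESN3 and IRS2, chosen by symbol from the 58302 genes of the deposited table. Each symbol matched 1 row, and all 10 genes were among the 15945 genes with enough counts to be tested. They were measured by RNA sequencing in PC-3, an established human prostate cancer cell line grown from a bone metastasis. The BHLHE22 group consisted of 3 libraries of PC-3 cells given a lentivirus that overexpresses the basic helix-loop-helix transcription factor BHLHE22. The vector group consisted of 3 libraries of PC-3 cells given an empty control lentivirus. The labels name neither the promoter that drives BHLHE22 nor a clone, and they do not tell separate cultures from repeated libraries of 1 culture. Replicate spread here may thus be partly or wholly technical, and p-values refer to that spread alone.

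FOXO proteins are forkhead transcription factors that act downstream of insulin and growth factor signalling. When the kinases AKT and SGK are active they phosphorylate FOXO proteins, which then leave the nucleus. When that signalling is low, FOXO proteins enter the nucleus and switch on genes for cell cycle arrest, stress resistance, sugar and amino acid sensing, and feedback on insulin signalling. The activity of FOXO proteins is set mainly by phosphorylation and location, which RNA levels do not measure.

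Of the 10 genes, 7 were lower in BHLHE22 cells, 1 was higher and 2 did not pass the test. The genes that were lower are FOXO1, FOXO3, FOXO4, CCNG2, BTG1, SESN3 and IRS2. TXNIP was the gene that was higher, and KLF6 and SESN1 did not pass. Calls are those with an adjusted p (Benjamini-Hochberg) under 0.05 in edgeR's quasi-likelihood test. Over all tested genes, 49.4% were called, 24.3% as lower and 25.1% as higher, so calls were common in this comparison. The split was 3996 higher and 3880 lower genes, and 5128 higher and 2890 lower with unscaled library sizes, which shift the median gene by 0.15 on the log2 scale. The groups did not overlap for 8 of the 10 genes, 7 of them lower and 1 higher, against 60.5% of all tested genes, 29.9% lower and 30.6% higher. The median log2 fold change of the 10 genes was -0.77, and that of all tested genes 0.00376. The genes were chosen with earlier results of these data known, so these shares describe the set and test nothing.

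**Figure D1:**
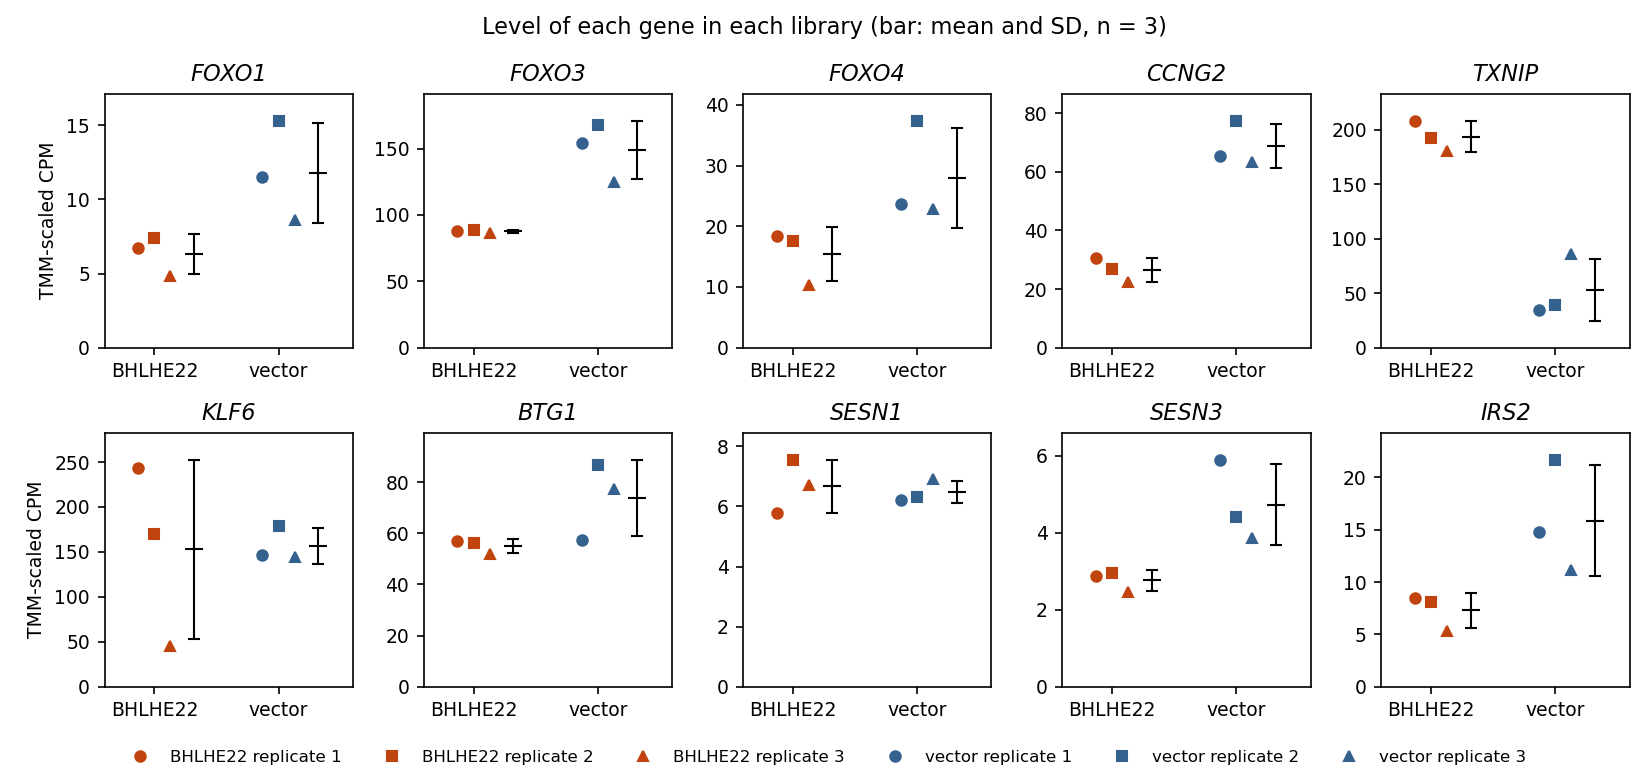
Level of each of the 10 genes in each library, in TMM-scaled CPM (counts scaled to a common library size, linear axis from 0), with BHLHE22 libraries in orange and vector libraries in blue; the bar beside each group is the mean and SD of 3 libraries. TXNIP stood at 180 to 208 CPM in BHLHE22 cells and 34.9 to 86.1 CPM in vector cells, while KLF6 ranged from 45.5 to 243 CPM within the BHLHE22 group.

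The libraries held 12186723 to 15949537 counts each. Mitochondrial genes took 4.95 to 5.21% of the counts in BHLHE22 libraries and 7.53 to 8.32% in vector libraries, with no overlap. BHLHE22 itself had 98, 92 and 133 counts in the BHLHE22 libraries and 1 count in each vector library. The keratin genes KRT8 and KRT18 and the vimentin gene VIM were abundant in every library. The luminal prostate gene KLK3 had 0 counts in all. Blood cell markers summed to 0.359 to 1.02 CPM in BHLHE22 cells and 0.476 to 1.27 CPM in vector cells over 8 genes, with HBB, TYROBP and CD3E at 0 in every library. Of 7 fibroblast markers, summed at 61.0 to 62.6 CPM in BHLHE22 cells and 78.5 to 89.8 CPM in vector cells, COL1A1 made up most, and DCN had 0 counts in vector cells. COL3A1 fell to 0.923 CPM in BHLHE22 cells, against 7.64 CPM in vector cells, and LUM rose to 1.94 CPM in BHLHE22 cells, against 0.437 CPM in vector cells. The part of these markers and of the mitochondrial share in the results below was not tested. In bulk RNA, fewer expressing cells and less RNA per cell cannot be told apart.

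FOXO proteins bind the DNA sequence GTAAACA. The RefSeq promoter table (GRCh38.p14) gives 250 bases before to 50 after each annotated start, and held all 10 genes with 16 start windows. GTAAACA, on either strand, was found in 3 of these windows, those of TXNIP, BTG1 and FOXO4, and in 3.42% of all 35116 windows of the table. They are shown because they carry the same element while TXNIP was higher and BTG1 and FOXO4 were lower in BHLHE22 cells. The TXNIP stretch is chr1:145996601-145996829 and the BTG1 stretch chr12:92145898-92146096, both on the minus strand, cut where the annotated gene begins. The FOXO4 site is chrX:71095863-71095892 on the plus strand. Each is written 5′ to 3′ with the element in capitals.
TXNIP: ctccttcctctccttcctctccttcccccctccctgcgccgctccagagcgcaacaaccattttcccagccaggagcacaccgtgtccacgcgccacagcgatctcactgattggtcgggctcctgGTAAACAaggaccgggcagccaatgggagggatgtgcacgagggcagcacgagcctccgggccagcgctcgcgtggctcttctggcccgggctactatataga
BTG1: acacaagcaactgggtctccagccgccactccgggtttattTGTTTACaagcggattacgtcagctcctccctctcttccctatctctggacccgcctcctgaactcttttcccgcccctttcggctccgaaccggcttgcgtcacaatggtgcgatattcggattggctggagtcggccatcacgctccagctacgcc
FOXO4: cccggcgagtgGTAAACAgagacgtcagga

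The element began 124 bases before the RefSeq start in TXNIP and 209 bases before it in BTG1, where it lies in the opposite orientation. In FOXO4 it began at base 24 after the RefSeq start, which lies before the annotated gene start at 71096197. The E-box CACGTG, the element of MYC and its relatives, was found in the windows of CCNG2 and KLF6, 30 and 97 bases before the RefSeq start. It was found in 7.26% of all windows. In CCNG2 the E-box, at 77157177 to 77157182, lies inside the annotated gene, which begins at 77157151. CATATG, an E-box form recognised by BHLHE22 and related factors, was found in 0 of the 16 windows and in 3.04% of all. No element shown overlaps another of those searched. A match describes the letters of a window and not binding in these cells.

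All 3 FOXO genes were lower in BHLHE22 cells, by a similar proportion. FOXO3 (ENSG00000118689, chromosome 6, 108559835 to 108684774, GRCh38) encodes the family member with the most RNA here. It had 88.0, 88.6 and 86.3 CPM in BHLHE22 cells and 155, 168 and 125 CPM in vector cells. The BHLHE22 libraries lay within a few percent of each other and all below the lowest vector library. The log2 fold change was -0.77 (SE 0.11, adjusted p = 0.00139, edgeR quasi-likelihood), a level of 0.588 times that of vector cells. FOXO3B, a near-identical copy on chromosome 17 that may share reads with FOXO3, had 44, 56 and 61 counts in BHLHE22 cells and 42, 20 and 60 in vector cells, against 1127 to 1438 and 1770 to 2466 counts for FOXO3.

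FOXO1 (ENSG00000150907, chromosome 13, 40469953 to 40666597), which in liver and fat carries much of the response to fasting, had 6.71, 7.39 and 4.80 CPM in BHLHE22 cells. In vector cells it had 11.5, 15.3 and 8.59 CPM. The groups stood apart by a small gap, between BHLHE22 replicate 2 and vector replicate 3. FOXO1 had a log2 fold change of -0.91 (SE 0.25, adjusted p = 0.0178, edgeR quasi-likelihood). The call ended without BHLHE22 replicate 3 (log2 fold change -0.74; edgeR, adjusted p = 0.0572) and without vector replicate 2 (-0.67; adjusted p = 0.0541).

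FOXO4 (ENSG00000184481, chromosome X, 71096197 to 71103535), the member best known from muscle and from senescent cells, had 18.3, 17.5 and 10.3 CPM in BHLHE22 cells and 23.6, 37.4 and 22.9 CPM in vector cells. BHLHE22 replicate 3 was low and vector replicate 2 was high within their groups, and the groups did not overlap. The log2 fold change was -0.87 (SE 0.28, adjusted p = 0.0376, edgeR quasi-likelihood). The call ended without BHLHE22 replicate 2 or vector replicate 1 (adjusted p = 0.0623 and 0.0505), where the log2 fold change was larger in size at -0.96 and -0.97. It ended as well without BHLHE22 replicate 3 or vector replicate 2 (adjusted p = 0.0737 and 0.0998), where it was smaller at -0.64 and -0.60. It also ended with unscaled library sizes (0.0572) and without the low-count filter (0.0759). FOXO6, the remaining family member, had 2 counts over the BHLHE22 libraries and 6 over the vector libraries and was not tested.

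Per gene length, the FOXO sum was lower, and the share of each member differed little between groups. The deposited FPKM, a level corrected for gene length and library size, summed over FOXO1, FOXO3 and FOXO4 to 11.8, 11.7 and 9.52 in BHLHE22 libraries and 16.9, 20.6 and 14.7 in vector libraries. No BHLHE22 library reached the lowest vector library. These FPKM are not TMM-scaled, and library sizes without that scaling shift the median gene by 0.15 on the log2 scale, towards higher in BHLHE22 cells. FOXO3 made up 58.9% ± 6.8 of the sum in BHLHE22 cells and 56.9% ± 4.2 in vector cells (SD, n = 3 each). FOXO4 made up 31.7% ± 5.9 and 33.1% ± 3.8, and FOXO1 9.42% ± 1.02 and 10.01% ± 0.93, in BHLHE22 and vector cells. Each of these differences in share is smaller than the SD within a group.

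**Figure D2:**
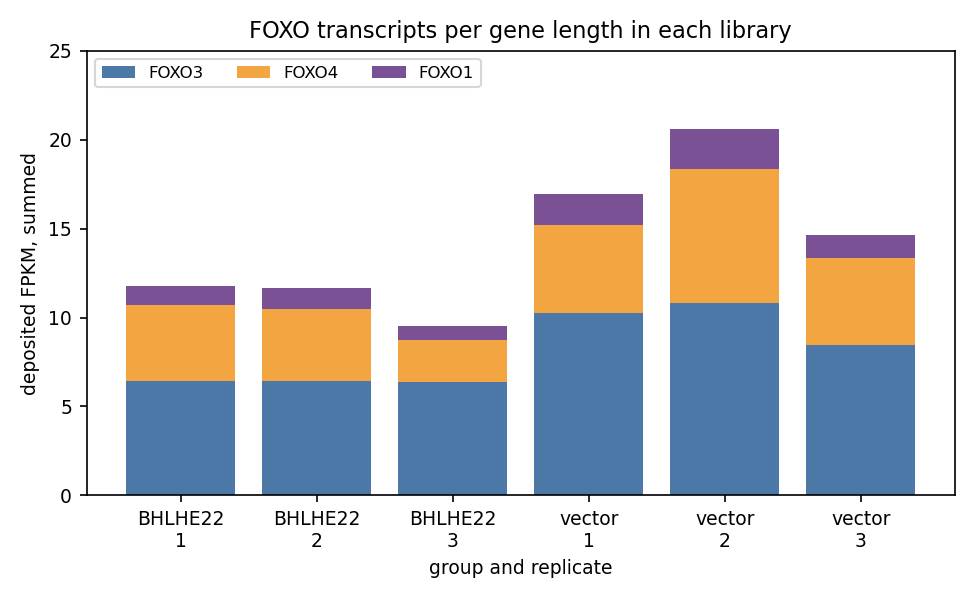
Deposited FPKM of FOXO3, FOXO4 and FOXO1 stacked for each library, with the BHLHE22 libraries on the left and the vector libraries on the right. The sums lie between 9.52 and 11.8 in BHLHE22 libraries and between 14.7 and 20.6 in vector libraries.

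Among the targets tied to cell cycle exit, CCNG2 showed the clearest difference. CCNG2 (ENSG00000138764, chromosome 4, 77157151 to 77433388) encodes cyclin G2, an unusual cyclin that is high in resting cells and slows the cell cycle. It had 30.6, 26.8 and 22.3 CPM in BHLHE22 cells and 65.3, 77.5 and 63.5 CPM in vector cells. Every BHLHE22 library lay below the lowest vector library by a wide margin. CCNG2 had a log2 fold change of -1.38 (SE 0.14, adjusted p = 0.000347, edgeR quasi-likelihood), which leaves 0.386 times the vector level. Among the tested genes, 8.77% had a larger change in either direction.

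BTG1 (ENSG00000133639, chromosome 12, 92140278 to 92145897) encodes an antiproliferative protein that links transcription and mRNA decay factors and is a known FOXO3 target. It had 57.0, 56.0 and 52.1 CPM in BHLHE22 cells and 57.5, 86.7 and 77.4 CPM in vector cells. Vector replicate 1 lay almost at the level of the BHLHE22 libraries, and the other vector libraries lay above. The log2 fold change was -0.43 (SE 0.15, adjusted p = 0.0444, edgeR quasi-likelihood), and the call ended in 8 of 13 alternatives. These include leaving out BHLHE22 replicate 1, 2 or 3 (adjusted p = 0.0830, 0.0996 and 0.126), with log2 fold changes of -0.44, -0.43 and -0.38. They also include leaving out vector replicate 2 or 3 (0.137 and 0.114), with -0.29 and -0.38, and unscaled library sizes (0.141), with -0.28. LINC01619 on the same strand and the antisense gene AC025164.2 overlap BTG1, with 246 and 52 counts in all against 5513 for BTG1.

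KLF6 (ENSG00000067082, chromosome 10, 3775996 to 3785281), a zinc finger factor described as a tumour suppressor in prostate, did not pass the test. It had 243, 170 and 45.5 CPM in BHLHE22 cells and 147, 179 and 144 CPM in vector cells. BHLHE22 replicate 1 was above every vector library and BHLHE22 replicate 3 far below, at 0.223 times the mean of the other 2 BHLHE22 libraries. Only 15 of 10312 genes with a group mean of at least 10 CPM were that far or further below in this library. KLF6 had a log2 fold change of -0.039 (95% interval -1.47 to 1.39, adjusted p = 0.964, edgeR quasi-likelihood), so changes of more than 2-fold in either direction lie inside the interval. Without BHLHE22 replicate 3 it was 0.40 (adjusted p = 0.112). It was also above 0 with unscaled library sizes (0.11) and without vector replicate 2 (0.07). Some genes of the other lists, named after their values were seen, had a single BHLHE22 library far from the others too. MAP1LC3B had 112, 109 and 41.0 CPM and YWHAH 146, 73.6 and 72.0 CPM in the BHLHE22 libraries. Whether such steps lie in the cells, the libraries or the counting of reads was not tested.

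TXNIP was the single gene of the set that was higher in BHLHE22 cells. TXNIP (ENSG00000265972, chromosome 1, 145992435 to 145996600) encodes thioredoxin-interacting protein, an arrestin-like protein that binds thioredoxin, lowers glucose uptake and restrains growth. It had 208, 192 and 180 CPM in BHLHE22 cells and 34.9, 38.9 and 86.1 CPM in vector cells. The BHLHE22 libraries agree closely, while vector replicate 3 stood at 2.31 times the mean of the other 2 vector libraries. In that library 29 of 10027 genes with a group mean of at least 10 CPM stood that far or further above. The log2 fold change was 1.86 (SE 0.36, adjusted p = 0.00725, edgeR quasi-likelihood), a 3.63-fold higher level with a 95% interval of 1.97 to 6.66. It was 2.39 without vector replicate 3. The FPKM of TXNIP was 5.91 ± 0.38 times that of FOXO3 in BHLHE22 cells and 1.03 ± 0.71 times in vector cells (SD, n = 3 each).

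Sestrins are stress-induced proteins that sense amino acids and restrain the growth kinase mTORC1, and SESN1 and SESN3 were at low levels. SESN3 (ENSG00000149212, chromosome 11, 95165513 to 95232541), a FOXO target, had 2.89, 2.94 and 2.46 CPM in BHLHE22 cells and 5.90, 4.42 and 3.87 CPM in vector cells. The groups did not overlap, and the log2 fold change was -0.78 (SE 0.21, adjusted p = 0.0174, edgeR quasi-likelihood). The adjusted p was 0.0591 without BHLHE22 replicate 3 and 0.0608 without vector replicate 1. SESN3 had 37, 41 and 41 counts in BHLHE22 cells and 78, 65 and 55 in vector cells. The antisense gene AP000787.1, which overlaps it, had 80 counts in all, and reads of the pair cannot be told apart if the counting ignored strand.

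SESN1 (ENSG00000080546, chromosome 6, 108986437 to 109094819), induced by p53 and FOXO proteins, had 5.77, 7.53 and 6.72 CPM in BHLHE22 cells and 6.20, 6.32 and 6.90 CPM in vector cells. The vector libraries lay within the range of the BHLHE22 libraries. SESN1 had a log2 fold change of 0.045 (SE 0.15, adjusted p = 0.827, edgeR quasi-likelihood), with a 95% interval of 0.809 to 1.32 times the vector level. It was -0.040 without BHLHE22 replicate 2. SESN2, the other sestrin gene, was lower in BHLHE22 cells, with 18.0 ± 1.0 CPM against 32.04 ± 6.34 CPM in vector cells (SD, n = 3 each; log2 fold change -0.83; edgeR quasi-likelihood, adjusted p = 0.00414).

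IRS2 (ENSG00000185950, chromosome 13, 109752698 to 109786568) encodes the adaptor that passes insulin and IGF1 receptor signals to PI3-kinase, and its gene is switched on by FOXO proteins as feedback. It had 8.43, 8.11 and 5.34 CPM in BHLHE22 cells and 14.7, 21.7 and 11.2 CPM in vector cells. All BHLHE22 libraries lay below all vector libraries. The log2 fold change was -1.13 (SE 0.28, adjusted p = 0.0134, edgeR quasi-likelihood), or 0.457 times the vector level. IRS1, its close relative, had 178 ± 9 CPM in BHLHE22 cells and 157 ± 10 CPM in vector cells and did not pass the test (log2 fold change 0.18; edgeR quasi-likelihood, adjusted p = 0.109).

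**Figure D3:**
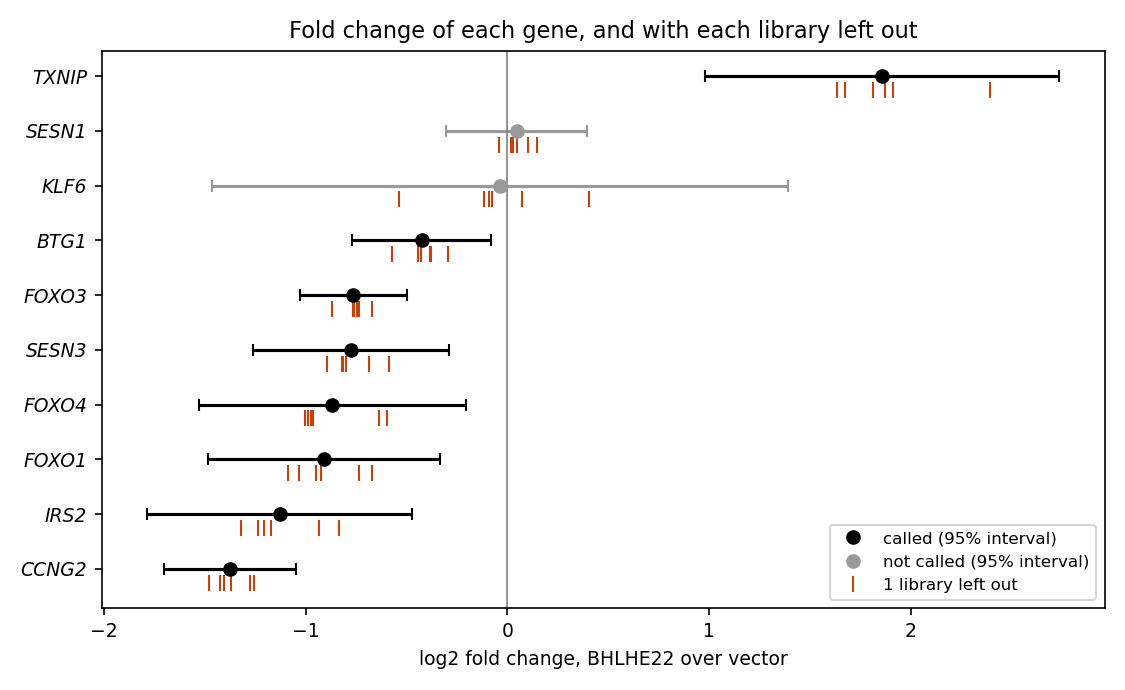
Log2 fold change of each gene, BHLHE22 over vector, with its 95% interval (black where called, grey where not) and, as orange ticks, the values with 1 library left out. CCNG2 at -1.38 and TXNIP at 1.86 mark the ends, and the KLF6 interval runs from -1.47 to 1.39.

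Of the 8 calls, those of FOXO3, CCNG2, IRS2 and TXNIP held at an adjusted p under 0.05 in all 13 alternative fits, and the 7 lower genes kept their sign in each. At a threshold of 0.01 in the edgeR quasi-likelihood test, FOXO3, CCNG2 and TXNIP were called and IRS2 was not. Without BHLHE22 replicate 3, 3 genes were called lower, and without vector replicate 2, 4 were. BHLHE22 replicate 3 had the lowest level of its group for 9 of the 10 genes, vector replicate 3 the lowest of its group for 7, and vector replicate 2 the highest of its group for 7. The median deviation of the 10 genes from their group mean was -0.20 on the log2 scale in BHLHE22 replicate 3, -0.18 in vector replicate 3 and 0.19 in vector replicate 2. Over all tested genes, the median deviation in those libraries was 0.000447, 0.00282 and -0.000127. TMM scaling holds such medians near 0, so they do not show how unusual the deviations of the 10 genes were. Without vector replicate 3, 6 genes were called lower.

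Per gene length, TXNIP was the most abundant of the 10 genes in BHLHE22 cells and the fourth in vector cells. Its FPKM was 37.9 ± 2.7 in BHLHE22 cells, above KLF6 at 11.8 ± 7.7, BTG1 at 11.1 ± 0.5 and FOXO3 at 6.42 ± 0.06 (SD, n = 3). In vector cells BTG1 led at 13.5 ± 2.6, then KLF6 at 10.97 ± 1.09, FOXO3 at 9.84 ± 1.22 and TXNIP at 9.52 ± 5.31 FPKM (SD, n = 3). Neighbours in the vector order from BTG1 down to FOXO4 overlapped between libraries. In BHLHE22 cells TXNIP stood apart from KLF6, while KLF6 and BTG1, FOXO4 and CCNG2, FOXO1 and SESN1, and SESN1 and IRS2 overlapped. SESN3 was the least abundant in both groups, at 0.235 ± 0.022 FPKM in BHLHE22 cells and 0.364 ± 0.080 FPKM in vector cells.

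The gene lists that follow share some genes, such as IRS1, RBL2 and ARRDC4. Upstream of FOXO, the RNA of the PI3-kinase, AKT and SGK axis moved in both directions. Of 24 genes tested, 4 rose and 8 fell, while 12 did not pass the test, and the median log2 fold change was -0.17. The share called was 50%, close to the 49.4% of all tested genes. The catalytic PI3-kinase genes PIK3CA and PIK3CB fell, with log2 fold changes of -0.65 and -0.61, and the regulatory subunit gene PIK3R3 fell to 46.7 CPM in BHLHE22 cells, against 93.7 CPM in vector cells. RICTOR, the subunit that defines the AKT-activating complex mTORC2, had 124 ± 33 CPM in BHLHE22 cells and 339 ± 62 CPM in vector cells (SD, n = 3 each; log2 fold change -1.45; edgeR quasi-likelihood, adjusted p = 0.00245). TRIB2, a pseudokinase reported to restrain FOXO3 in melanoma, had 69.8 ± 4.8 CPM in BHLHE22 cells and 517 ± 175 CPM in vector cells (SD, n = 3 each; log2 fold change -2.89; edgeR quasi-likelihood, adjusted p = 0.000342). The genes that rose, named after their values were seen, were AKT1, AKT2, SGK3 and the AKT phosphatase gene PHLPP2, with log2 fold changes of 0.45, 0.21, 0.81 and 0.72.

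The list of enzymes and partners that modify FOXO proteins had 26 tested genes. Of these 8 rose, 4 fell and 14 did not pass, a share of 46.2% called, and the median log2 fold change was -0.00615. SKP2, which marks FOXO1 for degradation, had 34.5 ± 6.1 CPM in BHLHE22 cells and 13.1 ± 2.4 CPM in vector cells (SD, n = 3 each; log2 fold change 1.40; edgeR quasi-likelihood, adjusted p = 0.000894). CDK2, a kinase that can phosphorylate FOXO1, rose with 0.89. YWHAG, one of the 14-3-3 genes whose proteins hold phosphorylated FOXO in the cytoplasm, rose with 0.36. The acetyltransferase genes EP300 and KAT2B fell, with log2 fold changes of -0.67 and -0.48.

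Other genes reported as FOXO targets also moved both ways. Of 32 tested, 4 rose, 10 fell and 18 did not pass, a share of 43.8% called, and the median was -0.26. The shares called here and among the modifiers were below the 49.4% of all tested genes. BCL6, a transcriptional repressor, had 53.5, 46.9 and 43.0 CPM in BHLHE22 cells and 462, 832 and 329 CPM in vector cells (log2 fold change -3.50; edgeR quasi-likelihood, adjusted p = 0.000892). FBXO32, the muscle-wasting ubiquitin ligase gene atrogin-1, fell to 26.4 CPM in BHLHE22 cells, against 105 CPM in vector cells. The stress gene TP53INP1 and the mitophagy kinase gene PINK1 fell with log2 fold changes of -1.22 and -0.59. TNFSF10, the gene of the death ligand TRAIL, rose with a log2 fold change of 1.33, at low levels of 9.21 ± 0.69 CPM in BHLHE22 cells and 3.66 ± 0.38 CPM in vector cells (SD, n = 3 each). The other genes that rose, named after their values were seen, were SELENOP, PIK3IP1 and PRDX3. The count of rises was 2 without BHLHE22 replicate 2.

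Relatives of the 10 genes within their families were mostly lower where called. Of 20 tested, 3 rose, 9 fell and 8 did not pass. The share called was 60%, against 49.4% of all tested genes, and the median was -0.34. TOB1, an antiproliferative relative of BTG1, had 80.7 ± 6.2 CPM in BHLHE22 cells and 164 ± 9 CPM in vector cells (SD, n = 3 each; log2 fold change -1.02; edgeR quasi-likelihood, adjusted p = 0.000201). The cyclin G relative CCNI fell with -0.57, the alpha-arrestin gene ARRDC2 with -0.95 and the Krüppel-like factor gene KLF3 with -1.22. KLF10, a TGF-beta-induced member of the KLF6 family, rose with 1.58, and 5 relatives rose with unscaled library sizes.

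ARRDC4, the closest relative of TXNIP and, like it, a target of the glucose sensor MondoA, was higher in BHLHE22 cells too. It had 7.42 ± 0.56 CPM in BHLHE22 cells and 2.73 ± 0.81 CPM in vector cells (SD, n = 3 each; log2 fold change 1.44; edgeR quasi-likelihood, adjusted p = 0.0015). MLXIP, the gene of MondoA, and its partner MLX had log2 fold changes of -0.36 and -0.46 (adjusted p = 0.0323 and 0.00436, edgeR quasi-likelihood). The call of MLXIP ended with BHLHE22 replicate 1 or 2 left out (adjusted p = 0.0924 and 0.112) or vector replicate 1 or 2 left out (0.102 and 0.0915), and also with a replicate block (0.0711), unscaled library sizes (0.153) or no low-count filter (0.0625). Its log2 fold change lay between -0.42 and -0.21 over all alternatives. TXN, the thioredoxin that TXNIP binds, rose with 0.79. Over this list of 10 tested genes, 3 rose and 2 fell, and 1 fell without BHLHE22 replicate 1 or 2 or vector replicate 1 or 2. The share called was 50%, close to the 49.4% of all tested genes. HK2, a hexokinase gene, was the remaining rise, with 0.27, and its adjusted p was 0.0790 and 0.0556 without BHLHE22 replicate 2 and 3 and 0.0658 and 0.0552 without vector replicate 1 and 2.

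Proliferation markers stood beside these values. All 20 rose in BHLHE22 cells, against 25.1% of all tested genes, with a median log2 fold change of 1.28. MKI67 had 326 ± 31 CPM in BHLHE22 cells and 116 ± 20 CPM in vector cells (SD, n = 3 each; log2 fold change 1.49; edgeR quasi-likelihood, adjusted p = 0.000244). CCNE2, MCM2, MCM4 and MCM5 rose with 3.23, 1.76, 1.56 and 1.36. Of 15 genes of the DREAM and MuvB complexes, which silence cell cycle genes in resting cells or activate them in dividing ones, 3 rose, 4 fell and 8 did not pass, a share of 46.7% called. MYBL2 and RBL1 rose with 2.12 and 1.87, and RBBP4 and DYRK1A fell with -0.64 and -0.67. DYRK1B fell to 7.20 CPM in BHLHE22 cells, against 14.3 CPM in vector cells. DYRK1A and DYRK1B encode kinases that promote quiescence. The part of a changed share of cycling cells in the values of the 10 genes was not tested.

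**Figure D4:**
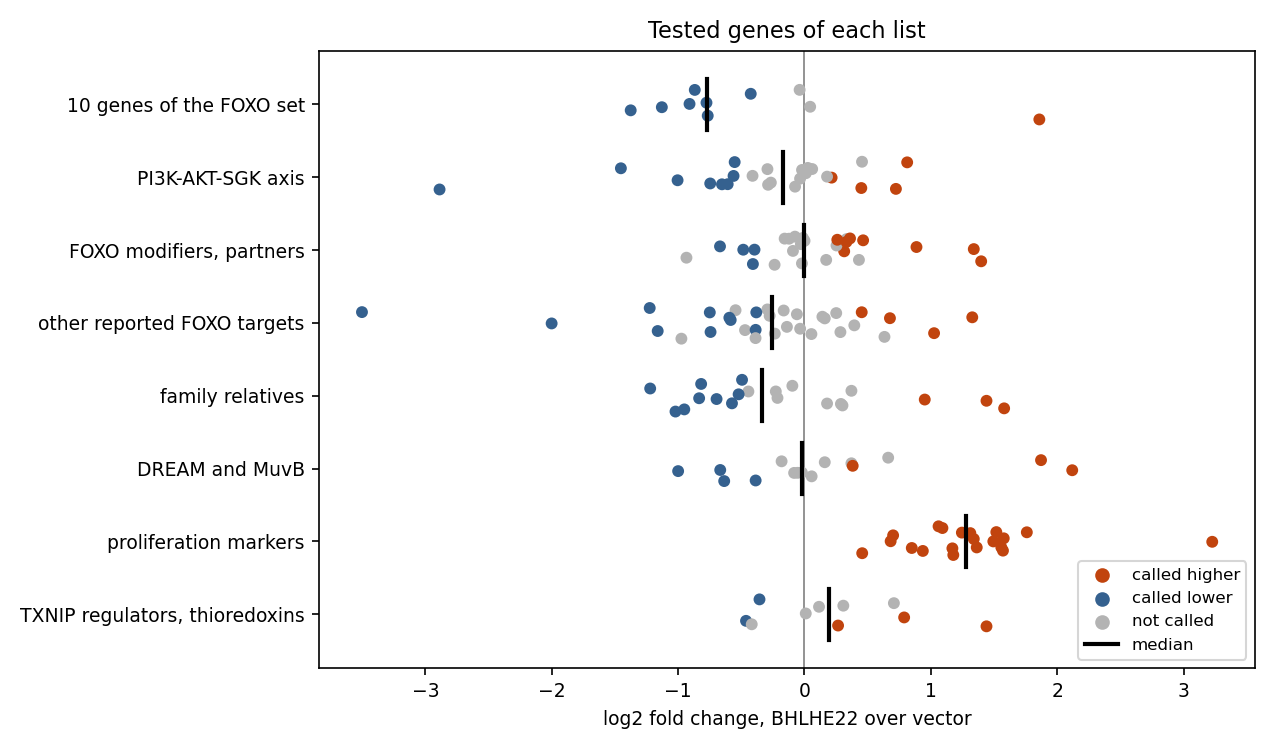
Log2 fold change, BHLHE22 over vector, of the tested genes of each list, 1 point per gene, coloured by call, with the median of each list as a black bar. The 10 genes have a median of -0.77, the 20 proliferation markers 1.28, and the remaining lists lie between -0.34 and 0.19.

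The genes with the most similar profile to each FOXO gene were found by the Euclidean distance between log2 CPM values over the 6 libraries, centred on each gene's mean, among genes with a mean of at least 10 CPM. Nearest to FOXO3 were ACP6, TANC2 and KMT2C, at distances of 0.0815, 0.0872 and 0.0944. Nearest to FOXO1 were GSN, CYSTM1 and HID1, at 0.279, 0.294 and 0.299. Nearest to FOXO4 were LIPH, NAB2 and EFEMP2, at 0.276, 0.350 and 0.358. The difference between the groups enters every distance.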

How the data were processed

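The authors deposited 1 table with whole-number read counts per Ensembl gene and FPKM values for 6 libraries. Per the submitters' processing notes, HISAT2 2.1.0, StringTie 1.3.4b, edgeR and CASAVA 1.8 were used on GRCh38 (hg38). Their settings and the handling of strand in counting are not stated there. Control columns were taken as vector libraries, with replicate numbers from the column headers.

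Tests used the deposited counts. Genes kept by filterByExpr were scaled by TMM and tested with edgeR 4.0.16 (R 4.3.3; quasi-likelihood, robust, group as the only term, 2-sided), with Benjamini-Hochberg adjustment over all 15945 genes. SE is the log2 fold change divided by the square root of F, and 95% intervals use the test's degrees of freedom. CPM are counts over the TMM-scaled library size. The deposited FPKM, which the authors computed without TMM, were used to compare genes per length and for the FOXO sum in each group. They entered no test. Profiles used log2 CPM with a prior count of 2.

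The 10 genes and the gene lists were chosen with earlier results of these data known. The text names all 10 genes, up to 5 called genes with the smallest p of each other list, the genes with the profiles nearest to the FOXO genes, and genes that overlap or copy the 10. Other genes named (line, blood and fibroblast markers, the relative IRS1, and further members of small counts) were chosen after their values were seen. Line checks that the rule also names are not all reported here. Alternatives were a replicate block, DESeq2 size factors, unscaled library sizes, DESeq2 1.42.0, limma-voom (limma 3.58.1), other filters, a threshold of 0.01 and each library left out.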

Additional observations from a re-analysis of the deposited data

How the results depend on the processing

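With each library left out in turn, 3 to 6 of the 10 genes were called lower and 1 higher. Log2 fold changes ranged from -1.09 to -0.67 for FOXO1, -1.01 to -0.60 for FOXO4, -0.57 to -0.29 for BTG1, -0.89 to -0.59 for SESN3, -0.54 to 0.40 for KLF6 and -0.040 to 0.14 for SESN1. SESN1 was -0.040 without BHLHE22 replicate 2, and KLF6 was 0.40 without BHLHE22 replicate 3 and 0.07 without vector replicate 2. The other reported FOXO targets had 2 to 5 rises, and the TXNIP regulator list 1 to 2 falls. With unscaled library sizes, which shift the typical gene by 0.15 on the log2 scale and gave 5128 higher and 2890 lower calls over all genes against 3996 and 3880 with TMM, FOXO4 (-0.72) and BTG1 (-0.28) were not called, KLF6 was 0.11, 5 family relatives rose and 1 gene of the TXNIP regulator list fell. Without the low-count filter FOXO4 (-0.85) was not called and 1 gene of that list fell. limma-voom gave -0.41 for BTG1 (adjusted p = 0.0606). The cause of these changes was not tested.

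The labels do not say whether the replicate numbers pair the libraries. The deviations of same-numbered libraries correlated at 0.00538, -0.0267 and 0.0105, and those of differently numbered libraries at -0.0397 to 0.0393. With 3 libraries per group, such values cannot settle whether the libraries were paired. With the replicate number as a block, 3688 genes were higher and 3604 lower, BTG1 had -0.41 (adjusted p = 0.0614), 1 gene of the TXNIP regulator list fell, and no other call among the 10 genes changed.

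At an adjusted p under 0.01, 2480 genes were higher and 2482 lower. TXNIP was still called higher, and 2 of the 10 genes lower. Rises numbered 2 in the PI3-kinase list, 5 among FOXO modifiers and 2 among other FOXO targets, and falls 2 in the DREAM list and 1 in the TXNIP regulator list.

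SESN3 had the fewest counts of the 10 genes, 119 over the BHLHE22 and 198 over the vector libraries, but the SE of the log2 fold change was largest for KLF6 (0.57) and TXNIP (0.36), which have 12859 and 10598 counts in all.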
